A study of Mus musculus with 12 samples.

Results

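The 10 genes described here build, fill and report on the fat cell: the transcription factors Pparg and Cebpa, the secreted adipokines Adipoq, Lep and Retn, the lipid droplet proteins Plin1, Plin4 and Cidec, the lipase Lipe and the carbonic anhydrase Car3. They were chosen by symbol as genes of adipocyte differentiation and adipokine output, by a rule that holds no measured value. Earlier results of these data were known when the genes were chosen. All 10 were among the 24422 gene rows of the counts, and all 10 passed the filter on low counts that left 16713 genes for testing.

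Poly-A RNA was sequenced from the stromal vascular fraction (SVF) of adipose tissue from mice, which is what pellets when dissociated fat is spun and the buoyant fat cells are taken off: progenitors, vessel cells and leukocytes. There were 4 groups of 3 libraries. Every animal group carried 1 modified allele of p21 (Cdkn1a), the controls included: replicates 1, 2 and 3 were p21+/mcherry under the standard diet (group SD mCherry), replicates 15, 17 and 20 p21+/mcherry under the high fat diet (group HFD mCherry), replicates 25, 26 and 27 p21+/mcherry-Tert under the high fat diet (group HFD Tert), and replicates 30, 31 and 33 p21+/mcherry-TertCi under the high fat diet (group HFD TertCi). Tert encodes the catalytic subunit of telomerase, and TertCi is known from the study as a catalytically inactive form. In the knock-in groups the p21 promoter drives the inserted gene, so expression is limited to cells in which that promoter is active. The design text of the series names the high fat diet controls as p21+/-, whereas the labels give p21+/mcherry, and the labels were followed. Age, sex, fat depot and batch are not given in the labels, and nothing states that replicates came from separate animals, so p-values measure the spread between these libraries, which may be technical.

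White fat cells arise from fibroblast-like progenitors. PPARγ, the nuclear receptor encoded by Pparg, and C/EBPα, encoded by Cebpa, maintain each other's expression during that process and switch on genes for lipid storage. Mature cells hold a single large lipid droplet coated by perilipins, release fatty acids through hormone-sensitive lipase, and secrete adiponectin, leptin and resistin. In the SVF most floating adipocytes have been removed, so transcripts of these genes can come from committed precursors, from residual fat cells or from other cell types that use the same gene.

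The 3 adipokine promoters are shown because the adipokines did not share 1 pattern across the 12 libraries. Adipoq and Retn had a Pearson r of 0.843 on log2 levels, and Lep had 0.19 with Adipoq and 0.34 with Retn. After the group means were subtracted these were 0.742, 0.288 and 0.658, so the gap between Lep and Retn lay mostly between groups. Any bearing of the motifs on these patterns was not tested. Each is the 250 bases before the transcription start on the plus strand, from RefSeq on GRCm38.p6, and capitals mark the motifs found by searching both strands for a C/EBP site (TTGCGCAA), a CCAAT box (the letters of its name), a TATA box (TATAA) and a nuclear receptor half-site (AGGTCA). The regions are chr16:23146286-23146535 for Adipoq, chr6:29059971-29060220 for Lep and chr8:3655520-3655769 for Retn.
Adipoq: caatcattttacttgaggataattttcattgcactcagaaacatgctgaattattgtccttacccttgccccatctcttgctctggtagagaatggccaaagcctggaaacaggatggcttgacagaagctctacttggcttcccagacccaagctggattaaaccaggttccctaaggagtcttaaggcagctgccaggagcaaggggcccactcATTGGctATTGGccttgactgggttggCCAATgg
Lep: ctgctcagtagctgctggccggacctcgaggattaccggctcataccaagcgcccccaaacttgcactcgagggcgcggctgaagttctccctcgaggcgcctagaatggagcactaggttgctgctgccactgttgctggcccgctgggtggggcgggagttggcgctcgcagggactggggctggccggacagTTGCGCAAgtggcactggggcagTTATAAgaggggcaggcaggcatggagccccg
Retn: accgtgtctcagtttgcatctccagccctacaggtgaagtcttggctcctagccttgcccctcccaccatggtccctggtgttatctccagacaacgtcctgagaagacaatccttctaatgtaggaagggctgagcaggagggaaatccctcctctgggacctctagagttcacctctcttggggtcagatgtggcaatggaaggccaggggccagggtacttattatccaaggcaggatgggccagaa
The Lep promoter held TTGCGCAA 47 bases before the start, a motif present in 0.164% of 32851 mouse promoters of the same length, and overlapping TATAA matches on both strands 26 and 27 bases before the start, a motif present in 22.8% of promoters. The Adipoq promoter held 3 CCAAT boxes, on either strand, at 29, 22 and 2 bases before the start, and CCAAT was present in 33.8% of promoters. No match to any of the 4 motifs was found in these 250 bases before Retn. Of the 10 genes, 9 had a promoter entry, with 13 starts in all, and AGGTCA, present in 14% of promoters, was found in 2 of the 3 entries for Pparg.

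The libraries held 16430330 to 19486965 counts, and 3 counts, the limit that a count of 0 allows, corresponded to 0.145 to 0.193 counts per 1000000 counts (CPM, relative to the TMM-scaled library size). Tert stood at 6.99 to 16.6 CPM in the 6 knock-in libraries and 0.463 to 3.97 CPM in the 6 mCherry libraries, and the added mCherry_Tert entry was counted in the knock-in libraries only, at 1.93 to 5.54 CPM. Transcripts typical of the epididymis were present in most libraries: Crisp1 was at least 641 CPM in 8 libraries and at most 0.529 CPM in the other 4, which were 1 of each group (HFD Tert 27, HFD TertCi 31, HFD mCherry 20 and SD mCherry 2). This split follows Crisp1 alone, and other epididymis and epithelium genes did not all follow it. The summed 12-gene list, Crisp1 included, was 4000 CPM in SD mCherry 2 (Crisp1 0.242 CPM). In HFD mCherry 17 (Crisp1 641 CPM) it was 699 CPM.

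Per kilobase of exon (GENCODE M21), the order of the 10 genes by median level over the 12 libraries was led by Cebpa at 16.4 CPM per kilobase. Car3 at 7.68, Plin4 at 7.33 and Pparg at 6.96 CPM per kilobase came next, and their ranges over the libraries overlapped widely. Lipe stood at 5.6 and Cidec at 3.61 CPM per kilobase. The secreted products were low, with Adipoq at 1.56, Lep at 1.2 and Retn at 0.748, and Plin1 was the lowest at 0.562 CPM per kilobase. In a bulk sample such levels cannot tell fewer cells of a type from less RNA per cell.

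**Figure D1:**
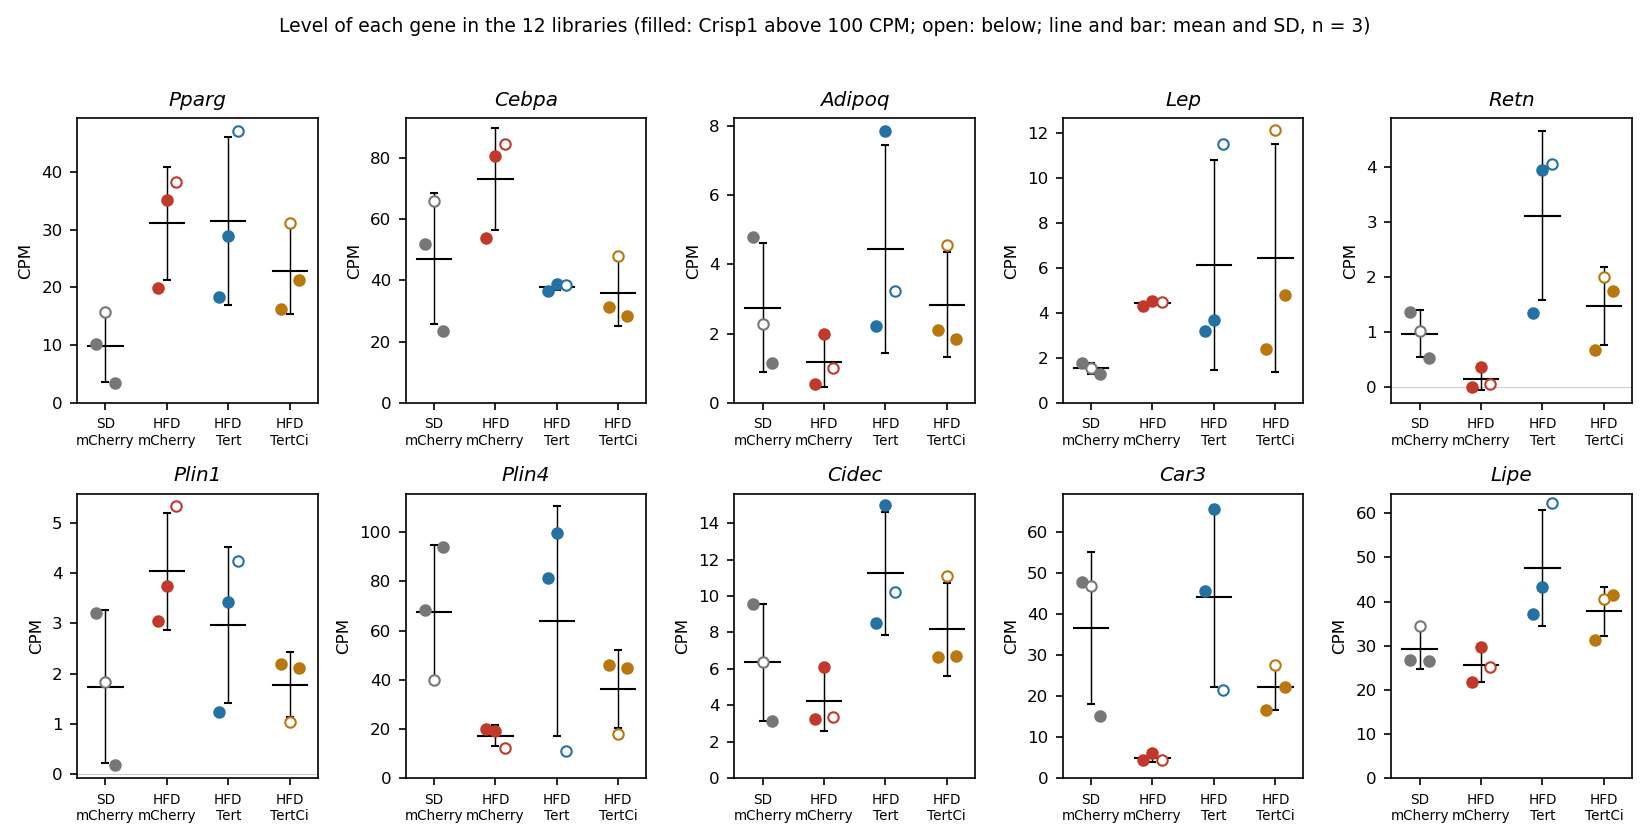
Level of each of the 10 genes in CPM (vertical axis, linear, with its own scale in each panel) in the 3 libraries of each group, with the mean (line) and SD (bar, n = 3); filled points are libraries with Crisp1 above 100 CPM and open points those below. Car3 in HFD mCherry lies between 4.36 and 6.07 CPM, under every library of the other groups, while Pparg and Lep are lowest in SD mCherry.

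Pparg lies on chromosome 6 (115360951-115490399, plus strand; coordinates here and below are GRCm38/mm10 from GENCODE M21). It was counted at 10.2, 15.7 and 3.42 CPM in SD mCherry, 19.9, 35.1 and 38.2 in HFD mCherry, 18.3, 28.9 and 47.1 in HFD Tert, and 16.3, 31.1 and 21.2 in HFD TertCi. All 9 high fat diet libraries were above all 3 standard diet libraries, and the 3 high fat diet groups overlapped. In each group the highest Pparg level was that of the library with Crisp1 below 1 CPM, and in the 8 libraries with Crisp1 above 100 CPM the diet difference was 2 on the log2 scale (edgeR adjusted p = 0.181). HFD mCherry exceeded SD mCherry by 1.67 ± 0.536 on the log2 scale (edgeR log2 fold change ± SE; unadjusted p = 0.0103, adjusted p = 0.115 over 16713 genes), which did not pass the threshold of 0.05. DESeq2 gave an adjusted p of 0.0276 for the same comparison. The alternatives to the edgeR fit gave adjusted p-values from 0.0215 to 0.356, under 0.05 in 3 of 21. Within the 3 high fat diet groups, HFD Tert stood 0.02 ± 0.521 from HFD mCherry and HFD TertCi −0.45 ± 0.522 (edgeR adjusted p = 0.991 and 0.718).

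Cebpa (chromosome 7, 35119293-35121928, plus strand) followed another order. Its levels were 51.8, 65.7 and 23.6 CPM in SD mCherry, 53.9, 80.6 and 84.4 in HFD mCherry, 36.6, 38.7 and 38.5 in HFD Tert, and 31.2, 48.0 and 28.2 in HFD TertCi. Both Tert groups lay wholly below HFD mCherry, and SD mCherry overlapped all 3 other groups. The edgeR log2 difference from HFD mCherry was −0.94 ± 0.35 in HFD Tert (unadjusted p = 0.0212, adjusted p = 0.242) and −1.03 ± 0.35 in HFD TertCi (unadjusted p = 0.0139, adjusted p = 0.246). With the epididymis score of each library as a covariate, the edgeR adjusted p-values were 0.0315 and 0.0299, the lowest of alternatives that reached up to 0.597 and 0.623. The diet difference was 0.63 ± 0.348 (adjusted p = 0.281). The exons of Cebpa share 51 bases (1.93%) with the antisense gene Gm45091, and no source used here says whether counting used strand. So the pair of factors that act together in adipogenesis differed in which groups were free of overlap. For Pparg all high fat diet libraries lay above SD mCherry, and for Cebpa both Tert groups lay below HFD mCherry. For both genes the diet difference was positive, and none of these differences passed in the main edgeR fit.

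Adipoq encodes adiponectin, the most abundant adipokine in blood, and lies on chromosome 16 (23146536-23158028, plus strand). Its levels were 4.79, 2.28 and 1.16 CPM in SD mCherry, 0.552, 1.98 and 1.02 in HFD mCherry, 2.22, 7.85 and 3.23 in HFD Tert, and 2.09, 4.57 and 1.85 in HFD TertCi, from 10 to 147 counts a library. The 3 HFD Tert libraries were above the 3 HFD mCherry libraries, and HFD TertCi overlapped HFD mCherry by 1 library on each side. The log2 difference between HFD Tert and HFD mCherry was 1.9 ± 0.729 (edgeR unadjusted p = 0.0248, adjusted p = 0.25), that for HFD TertCi 1.26 ± 0.72 (adjusted p = 0.439), and that for diet −1.21 ± 0.718 (adjusted p = 0.313). The spread within a group reached a standard deviation of 67.8% of the mean, in SD mCherry.

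Lep encodes leptin, the satiety hormone whose expression in fat tracks fat mass, and lies on chromosome 6 (29060220-29073877, plus strand). It was at 1.78, 1.55 and 1.27 CPM in SD mCherry and 4.31, 4.51 and 4.48 CPM in HFD mCherry. Replicates of those 2 groups lay close together, and the groups did not overlap. HFD Tert held 3.21, 3.68 and 11.5 CPM and HFD TertCi 2.40, 12.1 and 4.81 CPM, so every high fat diet library was above every standard diet library. The log2 diet difference was 1.52 ± 0.633 (edgeR unadjusted p = 0.0354, adjusted p = 0.183), and the DESeq2 adjusted p was 0.109. The highest library of each Tert group, HFD Tert 27 and HFD TertCi 31, was the one with Crisp1 below 1 CPM. Without HFD Tert 27 the edgeR log2 difference between HFD Tert and HFD mCherry turned from 0.47 to −0.36, and without HFD TertCi 31 that of HFD TertCi turned from 0.54 to −0.3.

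Retn encodes resistin, which in mice is secreted by fat cells, and lies on chromosome 8 (3655770-3660110, plus strand). Its counts were 27, 21 and 9 in SD mCherry, 0, 6 and 1 in HFD mCherry, 23, 74 and 69 in HFD Tert, and 13, 31 and 35 in HFD TertCi, which is at most 4.05 CPM in any library. The HFD mCherry counts were below those of each of the other 9 libraries, and 2 of those 3 HFD mCherry libraries were under the 3 counts that a 0 allows. Summed over libraries and scaled for depth, HFD mCherry was 7.29-fold lower than SD mCherry (7 against 57 counts; 95% exact interval 3.32 to 18.9, counting error only). HFD Tert exceeded HFD mCherry 23.1-fold (interval 11 to 58.3) and HFD TertCi 10.5-fold (interval 4.89 to 27.1), again for counting error only. Of the 7 HFD mCherry counts, 6 came from replicate 17, and without that library the edgeR log2 difference was −4.77 for diet, 6.44 for HFD Tert and 5.36 for HFD TertCi. Across replicates, the edgeR log2 difference was −2.75 ± 1 for diet (adjusted p = 0.146), 4.43 ± 1.05 for HFD Tert (adjusted p = 0.187) and 3.34 ± 1.02 for HFD TertCi (adjusted p = 0.215). DESeq2 gave adjusted p-values of 0.0355, 0.000866 and 0.02, and the alternatives ranged from 0.0343 to 0.434, 0.000866 to 0.597 and 0.02 to 0.596. The 3 adipokines therefore ordered the groups in 2 ways: Retn was lowest in HFD mCherry, and Lep was lowest in SD mCherry.

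Plin1 encodes perilipin 1, which coats the droplet of fat cells and gates lipolysis, and lies on chromosome 7 (79720218-79732903, minus strand). It was the lowest of the 10 per kilobase, at 3.21, 1.84 and 0.174 CPM in SD mCherry, 3.04, 3.73 and 5.32 in HFD mCherry, 1.23, 3.42 and 4.23 in HFD Tert, and 2.19, 1.03 and 2.11 in HFD TertCi. SD mCherry 3 held 3 counts. HFD TertCi lay below HFD mCherry without overlap (log2 difference −1.17 ± 0.805, edgeR adjusted p = 0.516), and no edgeR comparison reached an unadjusted p of 0.05 for Plin1.

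Cidec encodes the protein that fuses small droplets into a large one, and lies on chromosome 6 (113424634-113435760, minus strand). It was at 9.57, 6.40 and 3.13 CPM in SD mCherry, 3.26, 6.13 and 3.34 in HFD mCherry, 8.52, 15 and 10.2 in HFD Tert, and 6.68, 11.1 and 6.72 in HFD TertCi. All 6 libraries of the Tert groups were above the 3 HFD mCherry libraries. The log2 difference was 1.4 ± 0.46 for HFD Tert (edgeR unadjusted p = 0.0114, adjusted p = 0.223) and 0.94 ± 0.456 for HFD TertCi (unadjusted p = 0.0633, adjusted p = 0.368).

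Lipe encodes hormone-sensitive lipase, the enzyme of the second step of lipolysis, and lies on chromosome 7 (25379527-25398710, minus strand). Its SD was 14.6% to 27.6% of the mean within groups, and its levels were 26.8, 34.5 and 26.6 CPM in SD mCherry, 21.9, 29.6 and 25.3 in HFD mCherry, 37.2, 43.4 and 62.4 in HFD Tert, and 31.4, 40.6 and 41.4 in HFD TertCi. Both Tert groups were above HFD mCherry without overlap, and HFD Tert was also above SD mCherry. The log2 difference from HFD mCherry was 0.9 ± 0.235 in HFD Tert (edgeR unadjusted p = 0.00304, adjusted p = 0.188; DESeq2 adjusted p = 0.0209; alternatives 0.0209 to 0.597) and 0.56 ± 0.234 in HFD TertCi (edgeR unadjusted p = 0.036, adjusted p = 0.307). Of the exon bases of Lipe, 918 (15.6%) are shared with the antisense gene 4732471J01Rik, whose reads cannot be told apart if counting ignored strand.

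Plin4 encodes perilipin 4, a coat protein of small nascent droplets that is also made in skeletal muscle, and lies on chromosome 17 (56100591-56109803, minus strand). It was at 68.6, 40.0 and 94.2 CPM in SD mCherry, 20.2, 19.4 and 12.5 in HFD mCherry, 81.3, 99.7 and 11.2 in HFD Tert, and 45.9, 18.1 and 44.8 in HFD TertCi. The diet groups did not overlap, at a log2 difference of −1.96 ± 0.672 (edgeR unadjusted p = 0.0144, adjusted p = 0.13; DESeq2 adjusted p = 0.025; alternatives 0.0246 to 0.402). Each Tert group had 2 libraries above the HFD mCherry range and 1 within it or below it, and that library was the one with Crisp1 below 1 CPM. The log2 difference from HFD mCherry was 1.88 ± 0.671 in HFD Tert (adjusted p = 0.233) and 1.06 ± 0.657 in HFD TertCi (adjusted p = 0.471).

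Plin4 moved with skeletal muscle transcripts. The summed level of a 12-gene muscle list was 34.5 to 1120 CPM in SD mCherry, 10.5 to 111 in HFD mCherry, 12.5 to 1130 in HFD Tert and 13.8 to 676 in HFD TertCi. The list included Acta1 (skeletal muscle actin, 0 to 607 CPM), while Myh4 was at 0 in all 12 libraries. Acta1 made up 443 of the 1120 CPM in SD mCherry 3 and 0 of the 12.5 CPM in HFD Tert 27. Over the 12 libraries, Plin4 and the muscle list correlated at Pearson r = 0.897 and Spearman rho = 0.937 on log2(CPM + 0.5) (permutation p = 0.00043 and 6e-05, adjusted p = 0.00537 and 0.00117 over 50 relations). The r was 0.826 without the 2 libraries farthest from the median of the list, 0.909 in the 8 libraries with Crisp1 above 100 CPM and 0.939 after the group means were subtracted. The part of muscle RNA in the Plin4 differences was not tested.

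Car3 encodes carbonic anhydrase 3, a cytosolic enzyme abundant in mouse fat cells and slow muscle, and lies on chromosome 3 (14863512-14872523, plus strand). It had the largest differences of the 10 in standard errors. Its levels were 47.9, 47.0 and 15.2 CPM in SD mCherry, 4.36, 6.07 and 4.42 in HFD mCherry, 45.8, 65.6 and 21.6 in HFD Tert, and 16.6, 27.6 and 22.4 in HFD TertCi. The 3 HFD mCherry libraries lay together below the other 9, and the other 3 groups overlapped. Group means were 36.7 ± 18.6, 4.95 ± 0.971, 44.3 ± 22 and 22.2 ± 5.5 CPM (SD, n = 3 each, in that order).

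HFD mCherry was 7.4-fold below SD mCherry for Car3 (edgeR log2 difference −2.89 ± 0.503, unadjusted p = 0.000145, adjusted p = 0.0652). HFD Tert was 8.94-fold above HFD mCherry (3.16 ± 0.509, unadjusted p = 7.42e-05, adjusted p = 0.125), and HFD TertCi 4.48-fold above it (2.16 ± 0.49, unadjusted p = 0.00111, adjusted p = 0.165). In an F-test over the 4 groups Car3 ranked 52 of 16713 genes, with an edgeR adjusted p of 0.122; over the 10 genes that F-test called 0 (0.012% of all genes), DESeq2 called 3 (13.8%), and 6 had an edgeR unadjusted p under 0.05 (20.2%). None of these passed 0.05 in edgeR, and the DESeq2 adjusted p-values of the 3 comparisons were 3.01e-06, 4.29e-07 and 0.00201. Over 21 alternatives each, DESeq2 included, the adjusted p-values reached up to 0.261, 0.573 and 0.583. The diet difference passed in edgeR when SD mCherry 3 (adjusted p = 0.0263), HFD mCherry 15 (0.0215) or HFD Tert 27 (0.0235) was left out, with the epididymis score as a covariate (0.00871) and with the Crisp1 split as a block (0.0209). The HFD Tert difference passed with the covariate (0.0107) and without SD mCherry 3 (0.0346), and the HFD TertCi difference with the covariate (0.0383). In the 4 libraries with Crisp1 below 1 CPM, 1 per group and so without a test, Car3 was 47.0 CPM for SD mCherry, 4.42 for HFD mCherry, 21.6 for HFD Tert and 27.6 for HFD TertCi.

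Car3 also moved with transcripts of the mesothelium, the cell sheet that covers visceral fat. The summed level of the 7 mesothelial genes counted (Msln, Upk3b, Upk1b, Lrrn4, Krt19, Wt1 and Bnc1) was 439 to 1330 CPM in SD mCherry, 284 to 324 in HFD mCherry, 659 to 1640 in HFD Tert and 638 to 884 in HFD TertCi, and like Car3 it was lowest in all 3 HFD mCherry libraries. Car3 and this list correlated at Pearson r = 0.904 and Spearman rho = 0.832 (permutation p = 0.00016 and 0.00122, adjusted p = 0.00267 and 0.00871), at 0.854 without the 2 farthest libraries and at 0.873 in the 8 libraries with Crisp1 above 100 CPM. After the group means were subtracted the r was 0.775. Retn (r = 0.758, rho = 0.727, adjusted p = 0.0258 and 0.0475) and Cidec (r = 0.737, rho = 0.692, adjusted p = 0.0342 and 0.066) followed the same list less closely by r, and after subtraction of the group means their r was 0.15 and 0.405. The part of mesothelial RNA in these differences was not tested.

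Pparg and Lep moved with endothelial transcripts, and Pparg moved with progenitor transcripts. The 9-gene endothelial list was 827 to 1230 CPM in SD mCherry, 1800 to 3200 in HFD mCherry, 2080 to 5200 in HFD Tert and 2410 to 5150 in HFD TertCi, and the 15-gene progenitor list was 4730 to 6880, 9390 to 26400, 7330 to 14800 and 6300 to 12500 CPM. With the endothelial list the r was 0.883 for Pparg (rho = 0.888, permutation p = 2e-05 and 0.00025, adjusted p = 0.001 and 0.00312) and 0.92 for Lep (rho = 0.916, p = 5e-05 and 7e-05, adjusted p = 0.00125 and 0.00117). The r was 0.789 and 0.893 without the 2 farthest libraries, 0.921 and 0.861 in the 8 libraries with Crisp1 above 100 CPM, and 0.85 and 0.84 after the group means were subtracted. Pparg also followed the progenitor list (r = 0.804, rho = 0.944, permutation p = 0.00123 and 3e-05, adjusted p = 0.0102 and 0.00117). For Lep and the progenitor list the result was mixed (r = 0.639, rho = 0.839, adjusted permutation p = 0.0839 and 0.00842). Cebpa correlated with the 15-gene macrophage list at r = 0.702 (rho = 0.49, adjusted p = 0.0464 and 0.227), which rested on 2 libraries, since r was 0.255 without them. Plin4 (r = −0.808, adjusted permutation p = 0.0086) and Car3 (r = −0.795, rho = −0.713, adjusted p = 0.0149 and 0.0551) were lower where the macrophage list, 3210 to 8810 CPM in HFD mCherry and 1270 to 3380 CPM elsewhere, was higher. After the group means were subtracted the r was −0.739 for Plin4 and −0.242 for Car3, so the Car3 relation lay mostly between groups. The part of a changed mix of cells in the levels of Pparg, Lep and Cebpa was not tested.

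**Figure D2:**
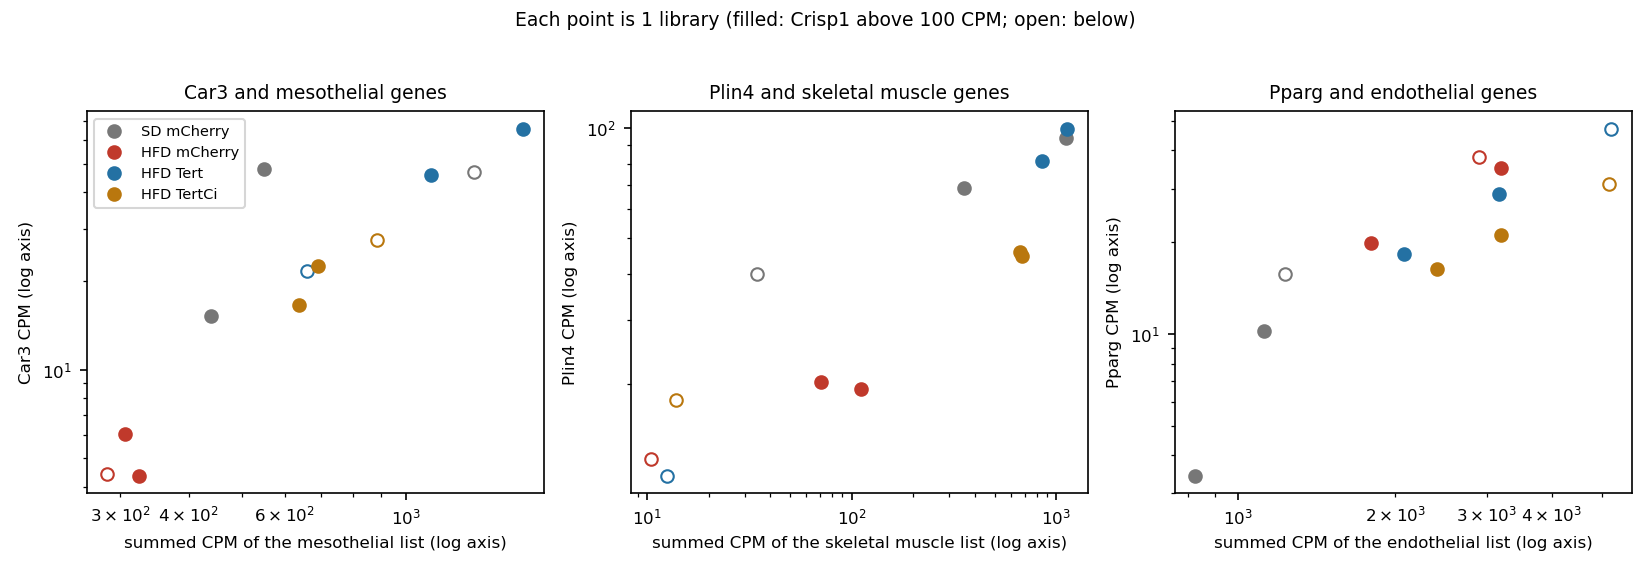
Each point is 1 library, coloured by group and open where Crisp1 is below 100 CPM; the horizontal axes give the summed CPM of the mesothelial, skeletal muscle and endothelial lists and the vertical axes the CPM of Car3, Plin4 and Pparg, all on log scales. Car3 is higher where the mesothelial list is higher (r = 0.904), and the same holds for Plin4 and the muscle list (r = 0.897) and for Pparg and the endothelial list (r = 0.883).

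For the diet comparison over all 10 genes, edgeR called 0 at an adjusted p under 0.05, against 0.0479% of all genes tested (8 genes). At an unadjusted p under 0.05 there were 5 of 10, Pparg and Lep higher and Retn, Plin4 and Car3 lower in HFD mCherry, against 24.1% of all genes (14.1% higher and 10% lower). The same 5 had groups that did not overlap, against 25.5% of all genes (13.9% higher and 11.6% lower). DESeq2 called 4 of the 5, without Lep, against 12.9% of all genes, and limma-voom called 0. The median log2 difference was −0.39 over the 10 and −0.08 over all genes, so the 10 did not shift one way: the master regulator and leptin stood higher while resistin, Car3 and perilipin 4 stood lower.

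For HFD Tert against HFD mCherry, edgeR called 0 of 10 and 0 of all genes (0%). At an unadjusted p under 0.05 there were 7 of 10, against 16.4% of all genes (6.62% higher and 9.75% lower): Adipoq, Retn, Plin4, Cidec, Car3 and Lipe higher and Cebpa lower. Groups did not overlap for 6 of 10, against 21.1%, of which 5 were higher against 9.99% of all genes and 1 was lower against 11.1%. DESeq2 called Car3, Retn and Lipe, against 5.09% of all genes, and limma-voom called 0 of 10. The median log2 difference was 1.15 over the 10 and −0.05 over all genes.

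For HFD TertCi against HFD mCherry, edgeR called 0 of 10, against 0.012% of all genes (2 genes). At an unadjusted p under 0.05 there were 4 of 10, Retn, Car3 and Lipe higher and Cebpa lower, against 14.7% of all genes (5.76% higher and 8.92% lower). Groups did not overlap for 6 of 10, against 21.5% (9.45% higher and 12% lower): Retn, Cidec, Car3 and Lipe were higher and Cebpa and Plin1 lower. DESeq2 called Car3 and Retn, against 4.3% of all genes, and limma-voom called 0 of 10. The median log2 difference was 0.75 over the 10 and −0.04 over all genes. These comparisons and the diet comparison share the 3 HFD mCherry libraries, so a level that is low there by chance enters each of them with opposite sign.

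Values that do not use HFD mCherry are those of the Tert groups beside SD mCherry, read as levels and without a model test. Pparg and Lep were above SD mCherry in every library of both Tert groups, and Lipe in every library of HFD Tert, which is 3 of 10 higher for HFD Tert against 11.3% of all genes (23.3% in either direction) and 2 of 10 higher for HFD TertCi against 10.3% (20.3%). The other 7 genes, Cebpa, Adipoq, Retn, Plin1, Plin4, Cidec and Car3, overlapped SD mCherry in both Tert groups. For Car3 and Retn the mean in HFD Tert was 44.3 ± 22 and 3.12 ± 1.54 CPM beside 36.7 ± 18.6 and 0.971 ± 0.429 CPM in SD mCherry (SD, n = 3 each).

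HFD Tert and HFD TertCi overlapped for all 10 genes. Of the 10 differences, 9 had the sign of a higher level in HFD Tert, as had 8060 of all 16713 genes tested. Several of the 10 genes vary together, so their signs are not separate observations. The largest in standard errors was that of Car3, at 1 ± 0.47 on the log2 scale (edgeR unadjusted p = 0.0583, adjusted p = 1). Retn differed by 1.08 ± 0.878, Plin4 by 0.82 ± 0.652, Adipoq by 0.65 ± 0.702 and Cebpa by 0.09 ± 0.347, and Lep had the opposite sign at −0.07 ± 0.612. No gene of the 10 reached an unadjusted p of 0.05, against 1.36% of all genes, DESeq2 called 0 of 10 against 0.0423% of all genes, and groups did not overlap for 0 of 10 against 5.13%. That no difference passed does not show that the active and the inactive form act alike.

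**Figure D3:**
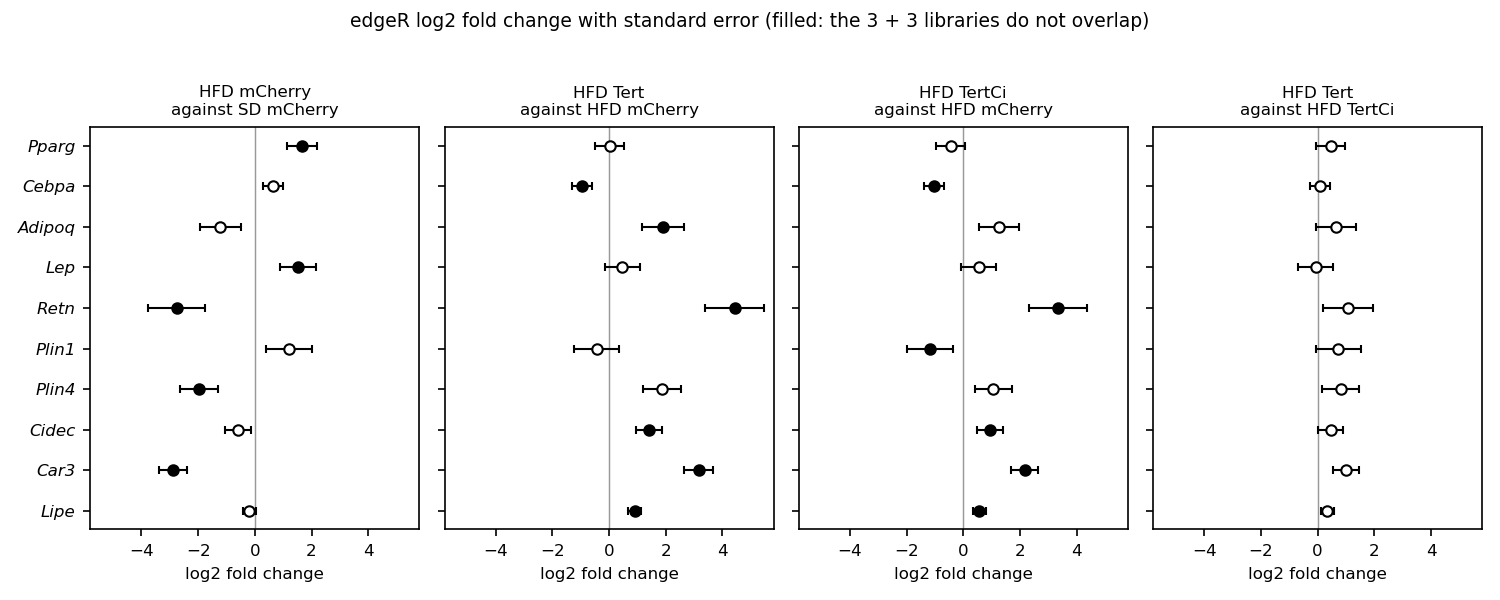
EdgeR log2 fold change (horizontal axis) with its standard error for each of the 10 genes in the 4 comparisons; filled points mark genes whose 3 and 3 libraries do not overlap. Car3 and Retn stand at −2.89 and −2.75 for diet and at 3.16 and 4.43 for HFD Tert, and no point is filled for HFD Tert against HFD TertCi.

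Other genes of fat cell formation, taken from lists without the 10, were next set beside them. Of 16 activators of adipocyte formation, 4 were higher and 0 lower in HFD mCherry than in SD mCherry at an unadjusted p under 0.05, where 14.1% of all genes were higher and 10% lower, with a median log2 difference of 0.19. They included Stat5a, a transcription factor that induces Pparg, at 31.4 ± 3.98 CPM in SD mCherry and 125 ± 59.7 in HFD mCherry (log2 difference 1.99 ± 0.481, edgeR adjusted p = 0.0729), and Ebf1, an early adipogenic factor (1.59 ± 0.514, adjusted p = 0.116). Of 16 inhibitors, 2 were higher and 4 lower: Tgfb1, which restrains adipogenesis, stood 1.87 ± 0.334 higher (adjusted p = 0.0657), and Nr2f2, also called COUP-TFII, stood at 101 ± 34.2 CPM in SD mCherry and 39.9 ± 2.46 in HFD mCherry (−1.34 ± 0.279, adjusted p = 0.0659). Groups did not overlap for these 4 genes, which were named for the smallest unadjusted p of their lists, and for 25.5% of all genes.

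In HFD Tert, 2 of the 16 activators were higher and 0 lower than in HFD mCherry (median −0.16; all genes 6.62% higher and 9.75% lower), and in HFD TertCi 2 were higher and 3 lower (median −0.22; all genes 5.76% and 8.92%). Bmp4, which commits progenitors to the fat lineage, was 18.6 ± 1.7 CPM in HFD mCherry against 47.9 ± 5.38 in HFD Tert and 51.8 ± 33.8 in HFD TertCi (log2 differences 1.37 ± 0.363 and 1.48 ± 0.364, edgeR adjusted p = 0.189 and 0.186). Cebpd, an early C/EBP factor, was 0.93 ± 0.343 higher in each (adjusted p = 0.242 and 0.264). Of the 16 inhibitors, 3 were higher and 2 lower in HFD Tert and 4 higher and 1 lower in HFD TertCi. Runx2, the bone lineage factor, stood at 33.2 ± 24.2 CPM in HFD mCherry against 4.3 ± 3.68 in HFD Tert and 2.28 ± 0.0619 in HFD TertCi (−2.95 ± 0.676 and −3.86 ± 0.706, adjusted p = 0.187 and 0.154), and Nr2f2 was higher in both (1.35 ± 0.279 and 1.06 ± 0.277, adjusted p = 0.168 and 0.19).

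The other adipokines gave the only edgeR call among these lists. Cfd, which encodes adipsin, was counted at 19.2, 15.8 and 10.1 CPM in SD mCherry, 0.387, 0.421 and 0.418 in HFD mCherry, 5.72, 13.2 and 4 in HFD Tert, and 1.89, 2.77 and 1.90 in HFD TertCi. The HFD mCherry libraries lay below all others, as for Car3 and Retn. Cfd fell by 5.18 ± 0.537 on the log2 scale with diet (edgeR adjusted p = 0.0219), a call that alternatives moved to adjusted p-values of up to 0.218, lost among others when SD mCherry 1, SD mCherry 2, HFD mCherry 17, HFD mCherry 20 or HFD TertCi 33 was left out. It stood 4.21 ± 0.517 above HFD mCherry in HFD Tert (adjusted p = 0.0554) and 2.4 ± 0.491 in HFD TertCi (adjusted p = 0.154). HFD Tert exceeded HFD TertCi by 1.81 ± 0.456 (unadjusted p = 0.00237, adjusted p = 1), without overlap. Of 13 adipokines tested, 3 were higher and 3 lower with diet at an unadjusted p under 0.05, 4 higher and 1 lower in HFD Tert, and 5 higher and 0 lower in HFD TertCi, with medians of −0.06, 0.74 and 0.38. Over all genes the shares higher and lower were 14.1% and 10% with diet, 6.62% and 9.75% in HFD Tert, and 5.76% and 8.92% in HFD TertCi. Rbp4, retinol-binding protein 4, was among the higher in both (1.93 ± 0.476 and 1.58 ± 0.472, adjusted p = 0.187 and 0.212).

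Receptors of adipokines had 4 of 10 higher and 1 lower with diet at an unadjusted p under 0.05 (median 0.5), where 14.1% of all genes were higher and 10% lower. Cmklr1, the chemerin receptor, stood 1.87 ± 0.645 higher (edgeR adjusted p = 0.132), and Aplnr, the apelin receptor, 1.12 ± 0.409 higher (adjusted p = 0.145). Lepr, the leptin receptor, was 20.9 ± 3.29 CPM in HFD mCherry against 43.5 ± 5.64 in HFD Tert and 37.6 ± 16.4 in HFD TertCi (1.06 ± 0.308 and 0.85 ± 0.307, adjusted p = 0.198 and 0.262). In HFD Tert 1 receptor was higher and 1 lower (all genes 6.62% and 9.75%), and in HFD TertCi 1 higher and 3 lower (all genes 5.76% and 8.92%). Ror1 was among the lower in both (−1.83 ± 0.597 and −1.81 ± 0.596, edgeR adjusted p = 0.221 and 0.239).

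Of 18 further genes of lipid droplets and lipolysis, 3 were higher and 4 lower with diet (all genes 14.1% and 10%), with a median log2 difference of −0.16. Plin2, a perilipin found widely outside adipocytes, lipid-laden macrophages included, stood at 79.7 ± 50.7 CPM in SD mCherry and 608 ± 294 in HFD mCherry (2.93 ± 0.641, edgeR adjusted p = 0.0671), opposite in sign to Plin4. Hilpda, an inhibitor of lipolysis, stood 1.81 ± 0.448 higher (adjusted p = 0.0743). In HFD Tert 1 was higher and 2 lower (all genes 6.62% and 9.75%), with Plin5 at −2.4 ± 1.02 and Cideb at −2.09 ± 0.857 (edgeR adjusted p = 0.283 and 0.274). Both were low and their groups overlapped. Plin5 was 3.11 ± 2.94 CPM in HFD mCherry and 0.585 ± 0.102 in HFD Tert, and Cideb 4.96 ± 3.36 and 1.16 ± 0.37. Without HFD mCherry 15 the Plin5 difference was −1.34. In HFD TertCi 0 were higher and 2 lower (all genes 5.76% and 8.92%), Plin2 (−1.41 ± 0.607, edgeR adjusted p = 0.317) and Hilpda (−1.27 ± 0.442, adjusted p = 0.251).

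Of 22 further genes of mature adipocyte function, 6 were higher and 5 lower with diet (median −0.63; all genes 14.1% and 10%). In HFD Tert 2 were higher and 2 lower (median −0.02; all genes 6.62% and 9.75%), and in HFD TertCi 0 were higher and 2 lower (median −0.13; all genes 5.76% and 8.92%). Cd36, the fatty acid transporter, stood at 157 ± 81 CPM in SD mCherry and 1460 ± 684 in HFD mCherry (3.21 ± 0.714, edgeR adjusted p = 0.0685), and Aoc3 1.58 ± 0.374 higher (adjusted p = 0.0727). Slc2a4, the insulin-responsive glucose transporter GLUT4, was 10.5 ± 4.03 CPM in HFD mCherry and 38.1 ± 24.9 in HFD Tert (1.86 ± 0.792, adjusted p = 0.284). Lpl, lipoprotein lipase, was 1930 ± 1070 CPM in HFD mCherry and 377 ± 269 in HFD TertCi (−2.36 ± 0.848, adjusted p = 0.259). Cd36 and Lpl are also expressed by macrophages and endothelial cells. The summed level of the list, 23 genes counted, was 1720 to 2400 CPM in SD mCherry, 3510 to 7150 in HFD mCherry, 2390 to 9790 in HFD Tert and 3940 to 5670 in HFD TertCi. The order of this sum is another than that of Adipoq, Cidec, Retn and Car3, but a few abundant genes weigh most in it. Fabp4 and Lpl were 1690 and 2670 of the 7150 CPM in HFD mCherry 17, and 6130 and 1130 of the 9790 CPM in HFD Tert 27. By sign, 8 of the 22 genes tested were higher and 14 lower with diet. The brown fat marker Ucp1 was at most 1.48 CPM.

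Between HFD Tert and HFD TertCi, 17 of these 22 genes had the sign of a higher level in HFD Tert (median 0.34). Over all genes 8060 of 16713 had that sign (median −0.01). Cfd was the only gene of the 6 lists with an edgeR unadjusted p under 0.05, against 1.36% of all genes. The next closest were Plin5 (−2.03 ± 1.01, edgeR unadjusted p = 0.071) and Hilpda (0.82 ± 0.438, unadjusted p = 0.0879), whose groups did not overlap, as for 5.13% of all genes. Klf5 (0.75 ± 0.542), Ebf2 (0.88 ± 0.804), Runx2 (0.91 ± 0.645), Dlk1 (0.63 ± 0.533), Sfrp5 (0.9 ± 0.613), Dgat2 (0.86 ± 0.592), Npr3 (0.53 ± 0.36), Tlr4 (0.44 ± 0.414) and Adipor2 (0.18 ± 0.217) all overlapped, at an edgeR adjusted p of 1.

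The 10 genes did not vary as 1 block over the 12 libraries. Of the 45 pairs, 31 had a positive Pearson r on log2(CPM + 0.5), with a median of 0.235 and a range from −0.705 to 0.945, and 12 passed a permutation test with adjustment over the 45 pairs, 10 positive and 2 negative. Without the 2 farthest libraries 2 pairs passed. After the group means were subtracted 16 pairs of either sign passed, by p-values that run too small because the means were fitted from the same values. Among Adipoq, Cidec, Retn, Lipe and Car3 all 10 pairs had a positive r and 8 passed; Adipoq with Lipe (r = 0.607, rho = 0.657, adjusted permutation p = 0.108 and 0.0898) and Car3 with Lipe (r = 0.544, rho = 0.608, adjusted p = 0.168 and 0.127) did not. After the group means were subtracted Lipe had an r of 0.241 with Adipoq, 0.304 with Cidec and −0.045 with Car3. The r of Retn with Car3 then went from 0.798 to 0.383. Adipoq and Cidec were closest (r = 0.945, rho = 0.888, permutation p = 3e-05 and 0.00015, adjusted p = 0.00135 and 0.00225), followed by Retn and Lipe (r = 0.894, rho = 0.909, permutation p = 7e-05 and 0.0001, adjusted p = 0.00157 and 0.00225) and Retn and Cidec (r = 0.886, rho = 0.909, permutation p = 0.00023 and 0.00015, adjusted p = 0.00345 and 0.00225). Without the 2 farthest libraries the r of these pairs was 0.918, 0.842 and 0.797. In the 8 libraries with Crisp1 above 100 CPM it was 0.94, 0.858 and 0.867, and after the group means were subtracted 0.947, 0.737 and 0.746.

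Over the 12 libraries no pair of Pparg with these 5 genes passed: its r with Adipoq, its textbook target, was 0.211 (rho = 0.007, permutation p = 0.51 and 0.991, adjusted p = 0.695 and 0.991). After the group means were subtracted its r was 0.567 with Adipoq, 0.649 with Cidec and 0.424 with Car3, and higher with Retn (0.725, rho = 0.65, adjusted permutation p = 0.034 and 0.0582) and with Lipe (0.761, rho = 0.797, adjusted p = 0.033 and 0.0182). Pparg paired with Lep (r = 0.794, rho = 0.874, permutation p = 0.00147 and 0.00039, adjusted p = 0.0132 and 0.00351; r = 0.715 without the 2 farthest libraries and 0.602 after the group means were subtracted). Its pair with Plin1 (r = 0.739, rho = 0.643, permutation p = 0.0104 and 0.0276, adjusted p = 0.04 and 0.0957) rested on 2 libraries, since r was 0.268 without them. Plin4 had negative r with Pparg (−0.696, rho = −0.713, permutation p = 0.00672 and 0.0116, adjusted p = 0.0302 and 0.0523) and with Lep (−0.705, rho = −0.692, permutation p = 0.0107 and 0.0161, adjusted p = 0.04 and 0.0657). Pparg and Cebpa had an r of 0.506 over the 12 libraries (rho = 0.371, permutation p = 0.0913 and 0.237, adjusted p = 0.205 and 0.465) and of 0.872 after the group means were subtracted (rho = 0.839, permutation p = 0.00019 and 0.00111, adjusted p = 0.00427 and 0.0125). Permutation p-values after this subtraction treated the 12 values as independent although the group means had been fitted from them, so they run too small. So within groups the libraries high in one factor tended to be high in the other. The group means differed in order, with Pparg lowest in SD mCherry and Cebpa lowest in both Tert groups. The log2 differences of Pparg and Cebpa were 1.67 and 0.63 for diet, 0.02 and −0.94 for HFD Tert, and −0.45 and −1.03 for HFD TertCi. None of these passed in the main edgeR fit.

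**Figure D4:**
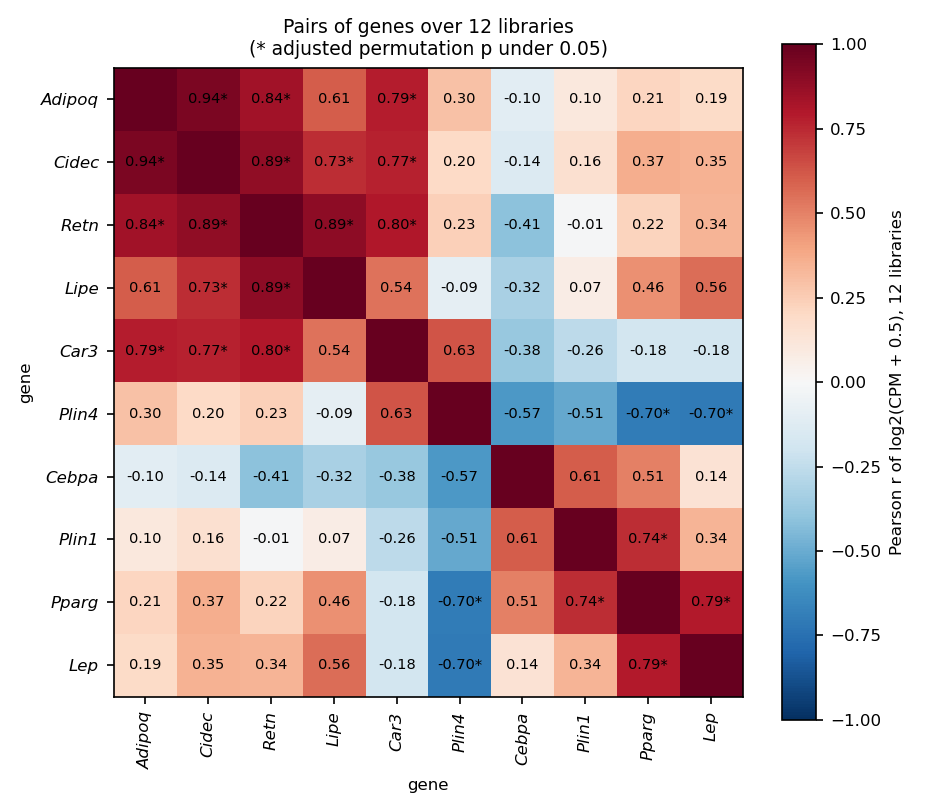
Pearson r of log2(CPM + 0.5) over the 12 libraries for each pair of the 10 genes (both axes list the genes; colour scale from −1 to 1; an asterisk marks an adjusted permutation p under 0.05). Adipoq, Cidec, Retn, Lipe and Car3 form a block of positive values, with r = 0.945 for Adipoq and Cidec, and Plin4 is negative with Pparg and Lep.

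The genes whose pattern was most like the mean of the 10 z-scored members, among 12351 genes averaging 5 CPM or more, were Lmcd1 (r = 0.955, rho = 0.972 over 12 libraries), Lrrn4 and Pkhd1l1 (r = 0.939 and rho = 0.923 each), Sema3a (r = 0.929), Kif13a (r = 0.921), Megf6 (r = 0.916), Rarres2 (r = 0.912) and Tmem98 (r = 0.905). They were picked for the highest r, which is a description with no test. Lrrn4 is on the mesothelial list, and Rarres2, which encodes the adipokine chemerin, is on the adipokine list. The mean of the z-scored members was highest in HFD Tert 26 (0.92) and HFD Tert 27 (0.7) and lowest in SD mCherry 3 (−1.06) and HFD mCherry 15 (−0.74), and SD mCherry 3 and HFD mCherry 15 were also the libraries with the highest epididymis score (mean log2 CPM of 8.16 and 9.78).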

How the data were processed

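Libraries were made from column-purified RNA by poly-T capture and random-primed cDNA synthesis, per the labels' protocols. The authors deposited raw read counts per gene, 1 table per library, per the file headers; Subread, SAMtools, featureCounts 1.6.4 and mm10 are named in the submitters' processing notes, and the annotation and strand setting are not given in the sources used here. The counts were used as deposited, and 0 rows lacked a gene name. Genes were filtered with filterByExpr and the 4 groups (16713 of 24422 kept), scaled by TMM (factors 0.854 to 1.15) and tested by the quasi-likelihood test of edgeR 4.0.16 in R 4.3.3, in 1 robust fit of all 12 libraries with Benjamini-Hochberg adjustment over all genes tested. The fit had a common BCV (biological coefficient of variation) of 0.536 and 8 residual degrees of freedom. DESeq2 1.42.0 and limma 3.58.1 (voom) were alternatives, with other scalings, no filter, each library left out, an epididymis score (mean log2 CPM of 12 genes) as covariate and the 8 libraries with Crisp1 above 100 CPM alone. Correlations used log2(CPM + 0.5) and 100000 permutations in Python 3.11.15, 2-sided. The script was tested on simulated data for the diet comparison. At the spread between libraries estimated in the fit, it called 89 of 200 genes simulated at a log2 change of 2. At a change of 4 it called 166 of 200, so many real differences of such sizes could go uncalled. No 2 replicates were copies: their chi-square per degree of freedom was at least 20.5. The members and lists were chosen with earlier results of these data known. Of each list, genes called in a comparison are named, or else the 2 with the smallest unadjusted p among those with a mean of at least 1 CPM. Of the genes so chosen, 1 is not reported here. Correlations with marker lists were added after the data were seen. Intervals and floors cover counting error only.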

Additional observations from a re-analysis of the deposited data

How the results depend on the processing

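With edgeR the number of the 10 genes called was 0 in every comparison, and several alternatives gave more: for diet DESeq2 4, the epididymis covariate 3 and the Crisp1 split as a block 3 (0 to 2 with each library left out); for HFD Tert DESeq2 3 and the covariate 4 (0 to 1); for HFD TertCi DESeq2 2 and the covariate 3; over the 4 groups DESeq2 3, the covariate 2 and the block 1 (0 to 1). The block was chosen after seeing the data. Genes called over the whole table were more unstable. For diet, 8 became 2 with DESeq2 size factors, 2055 in DESeq2, 0 in limma-voom, with only the 2 groups or with only libraries with Crisp1 above 100 CPM, 1365 with the covariate, 1508 with the block and 0 to 2082 with each library left out, the highest without HFD mCherry 15. For HFD Tert, 0 became 842 in DESeq2, 1241 with the covariate and 0 to 51 leaving out libraries. For HFD TertCi, 2 became 1 with library size only, 684 in DESeq2, 1042 with the covariate, 0 with only the 2 groups or only Crisp1 above 100 CPM, and 0 to 198 leaving out libraries. HFD Tert against HFD TertCi went from 0 to 7 in DESeq2. Over the 4 groups, 2 became 2281 in DESeq2, 0 in limma-voom and with Crisp1 above 100 CPM only, 1102 with the covariate, 280 with the block and 0 to 651 leaving out libraries.

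All 209 alternative values of the members for diet kept their direction, and 8 of 210 for HFD Tert, 2 of 210 for HFD TertCi and 7 of 210 for HFD Tert against HFD TertCi reversed. Some of these alternatives left out a library of a group outside the comparison, which hardly moves the log2 difference. For Car3 with diet it then stayed at −2.89 or −2.9. Those values could scarcely reverse, so these counts are weak evidence of a stable direction. For HFD Tert, Pparg was −0.03 in limma-voom, −0.38 with the covariate, −0.22 with Crisp1 above 100 CPM only, −0.06 with the block and −0.4 to 0.29 leaving out libraries, and Lep was −0.35 with Crisp1 above 100 CPM only and −0.36 to 0.78 leaving out libraries. For HFD TertCi, Lep was −0.29 with Crisp1 above 100 CPM only and −0.3 to 0.93 leaving out libraries. Between the Tert groups, Lep was 0.04 in limma-voom, Runx2 and Dlk1 were −0.04 with Crisp1 above 100 CPM only, and leaving out libraries gave −0.06 to 0.35 for Cebpa, −0.06 to 1.17 for Adipoq, −0.9 to 0.76 for Lep, −0.04 to 1.39 for Ebf2 and −0.04 to 1.32 for Runx2. The cause was not tested. Scaling by library size alone moved the median log2 difference of all genes for diet from −0.075 to −0.275, and the share of higher genes among those with an unadjusted p under 0.05 from 58.6% to 39.6% for diet, 40.4% to 55% for HFD Tert and 39.2% to 55.8% for HFD TertCi. Of the 45 pairs of members, 12 passed over all libraries and 2 without the 2 farthest libraries (n = 10). After the group means were subtracted 16 passed, by p-values that run too small. Retn could not be fitted for diet with only the 2 groups, since the low-count filter dropped it. No paired analysis was possible because each library's number occurs in 1 group only.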
